A study of Mus musculus with 20 samples.

Results

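Ductal cells line the tubes that carry pancreatic juice, and the genes examined here mark those cells or appear in acinar cells that turn towards a duct-like state, a change called acinar-to-ductal metaplasia. The 9 genes were Krt7, Krt8, Krt18, Krt19, Sox9, Epcam, Clu, Cftr and Muc1, a list chosen with earlier results of these data known. Each was matched by its Ensembl identifier among the 55471 genes of the deposited table. RNA had been sequenced from the epidermis and the pancreas of wild-type C57BL/6 mice, with 5 libraries in each of 4 groups. Skin mice received 1-fluoro-2,4-dinitrobenzene (DNFB), a contact allergen, on the back 3 times a week for 22 days after sensitization of the abdomen with 0.5% and then 0.25% DNFB, or the acetone and olive oil vehicle alone. They were male and female and 4 to 6 weeks old at the start. Pancreas mice received 50 μg/kg caerulein, a peptide that overstimulates acinar cells, by intraperitoneal injection hourly for 6 hours on 3 days a week for 3 weeks, or phosphate-buffered saline (PBS), and their age was not stated in the sources used here. The sources used here name no other allele or agent. The tissues were bulk samples, so fewer cells of a type and less RNA per cell cannot be told apart in any value.

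Acinar cells make the digestive enzymes, and simple epithelial keratins, which pair a type II protein (Krt7, Krt8) with a type I protein (Krt18, Krt19), form the filaments of duct cells. During injury acinar cells can lose enzyme expression and gain duct genes such as Krt19 and the transcription factor Sox9, and this change is often reversible. In skin the same genes have other places: Sox9 and Epcam are known from hair follicles and sebaceous glands, and Epcam also from Langerhans cells.

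The library totals ranged from 791491 to 2232039 counts, but 12 satellite-like predicted genes took 37.9% to 94.3% of them, which left 69592 to 1073987 usable counts. The acetone libraries with label numbers 11 and 12 stood apart, with 37.9% and 46.0% of counts on satellite-like genes against 81.9% to 93.4% in the other 3 acetone libraries. In the pancreas the usable counts lay between 69592 and 201611 in PBS and between 87788 and 591505 in caerulein libraries, so low genes were better resolved after caerulein. Caerulein library 20 had the most (591505), followed by library 10 (555718). The 29 acinar genes held 8012 to 101852 counts in each PBS library and 4 to 94 in each skin library, and the 7 basal keratinocyte genes held 73 to 10859 counts in skin and 2 to 65 in pancreas. Each tissue thus held the markers of its label.

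Promoter sequences of 6 of the 9 genes were taken from RefSeq (GRCm38.p6), and those of 3 keratins and of Muc1 are shown. The keratins had positive values in inflamed pancreas and Muc1 a negative one. Epcam and Cftr, whose windows are not shown, had positive values too. Krt7, Krt8 and Krt18 lie on 1 chromosome, chr15:101411043-101430313 on the plus strand, chr15:101996698-102004482 on the minus strand and chr15:102028180-102032027 on the plus strand, and 23.7 kb separate Krt8 from Krt18. Muc1 lies at chr3:89229057-89233381 on the plus strand. The windows lie at chr15:101412153-101412402 for Krt7, chr15:102004343-102004592 for Krt8, chr15:102027966-102028215 for Krt18 and chr3:89228806-89229055 for Muc1. Each line gives the 250 bases before RefSeq's start site, 5′ to 3′ on the gene's strand. The gene coordinates are those of GENCODE, whose outermost starts differ for the keratins, so that the Krt7 window lies inside the annotated gene and the Krt8 and Krt18 windows overlap its first bases. Capitals mark matches on either strand to 1 of 5 letter patterns, and none of the marked matches overlap each other. The pattern for AP-1, a factor of stress and injury responses, was TGANTCA. For TEAD, the partner of the growth regulator YAP, the letters searched were GGAATG. The SOX family, which includes Sox9, was represented by ACAATG. The GC box of SP and KLF factors was written as GGGCGG. The TATA box, which sets the start site in some promoters, was written as TATAAA.
Krt7: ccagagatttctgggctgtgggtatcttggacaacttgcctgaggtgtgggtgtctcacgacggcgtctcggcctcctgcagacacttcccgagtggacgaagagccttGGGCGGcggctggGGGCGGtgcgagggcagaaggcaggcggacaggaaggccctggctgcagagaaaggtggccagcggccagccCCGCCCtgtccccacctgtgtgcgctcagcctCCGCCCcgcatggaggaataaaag
Krt8: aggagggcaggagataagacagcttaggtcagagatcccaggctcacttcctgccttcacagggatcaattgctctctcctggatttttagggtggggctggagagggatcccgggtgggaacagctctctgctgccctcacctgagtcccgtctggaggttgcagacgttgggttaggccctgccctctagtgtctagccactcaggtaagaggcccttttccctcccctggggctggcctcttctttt
Krt18: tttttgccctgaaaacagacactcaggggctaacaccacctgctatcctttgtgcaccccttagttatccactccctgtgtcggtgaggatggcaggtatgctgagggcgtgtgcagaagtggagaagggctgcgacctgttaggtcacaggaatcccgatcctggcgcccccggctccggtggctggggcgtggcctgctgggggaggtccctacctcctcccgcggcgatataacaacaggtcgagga
Muc1: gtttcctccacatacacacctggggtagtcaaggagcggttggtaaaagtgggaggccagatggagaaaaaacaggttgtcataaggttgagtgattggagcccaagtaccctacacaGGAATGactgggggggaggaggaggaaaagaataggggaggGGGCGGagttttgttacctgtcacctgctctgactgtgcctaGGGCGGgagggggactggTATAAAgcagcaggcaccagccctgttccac
Krt7 held 4 SP/KLF matches, and Muc1 held 1 TEAD, 2 SP/KLF and 1 TATA match. The windows of Krt8 and Krt18 held none of the 5 letter patterns, which says only that these letters are not in those 250 bases. Over 32817 windows of the same length, 32.7% held an SP/KLF, 12.6% a TEAD, 12.4% a TATA, 10.7% a SOX and 6.75% an AP-1 pattern. Among the windows not shown, that of Epcam held 1 SP/KLF match and that of Cftr 6, some of which overlap. No promoter window was given for Krt19 (chr11:100140810-100148665), Sox9 (chr11:112782224-112787760) or Clu (chr14:65968483-65981547).

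To ask whether chronic pancreatitis changed duct genes, caerulein and PBS libraries were compared with edgeR's quasi-likelihood test and Benjamini-Hochberg adjustment over all genes tested. Values are normalized CPM, the count divided by the library's total and put on a common scale, after scaling by the trimmed mean of M-values (TMM), a factor meant to make libraries of unlike composition comparable. The fitted log2 values were positive for 8 of the 9 genes, from 0.45 for Clu to 3.94 for Krt19, and negative for Muc1. The filter on low counts let only Krt8, Krt18 and Clu into the test, and 0 of the 9 genes passed the adjusted threshold of 0.05 (1, Krt18, had an unadjusted p under 0.05). Of 946 genes tested, 8.14% were called higher and 4.02% lower after caerulein. The median log2 value over these 946 genes was -0.00. With low genes included the median over all genes was positive too. It was 0.46 over 38895 genes with no filter and 0.60 over 8618 genes with DESeq2, another test. All 9 genes were also compared by two-sided exact permutation tests, whose smallest possible p with 5 against 5 libraries is 0.00794, and which are unadjusted among 18 such tests in pancreas and skin.

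**Figure D1:**
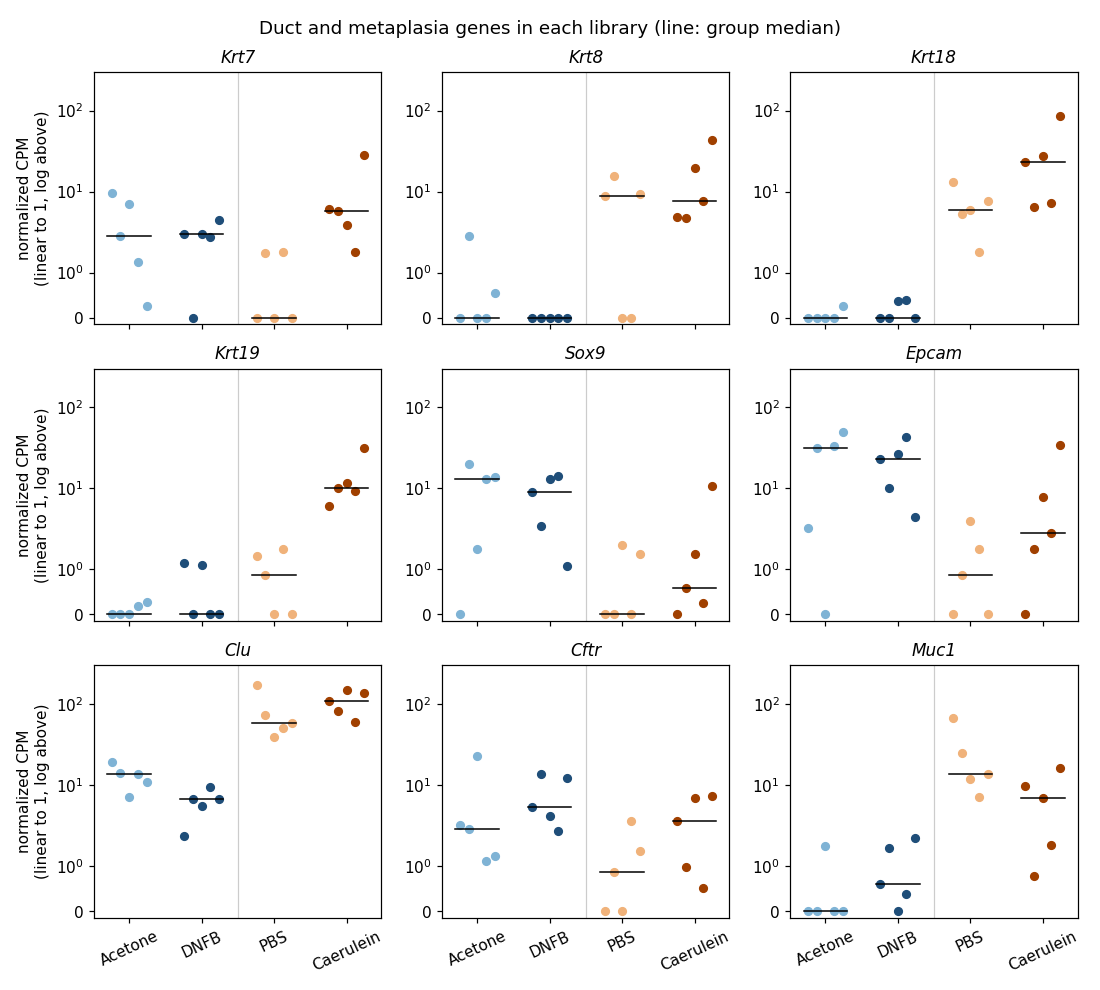
Normalized CPM of the 9 genes in every library, by group (y axis linear to 1 and logarithmic above; each point is 1 library in the order of its label number, and the line is the group median). Skin and pancreas were scaled in separate fits, so their levels are not on a shared scale. In pancreas the 5 caerulein values of Krt19 lie between 6.06 and 31.1, above all PBS values, while in skin Krt8, Krt18, Krt19 and Muc1 lie at or near 0.

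Krt19, a type I keratin and a standard duct marker, gave 5, 51, 15, 36 and 158 counts in caerulein libraries 9, 10, 18, 19 and 20. The 5 PBS libraries gave 1, 1, 0, 1 and 0 counts, in the order of label numbers 7, 8, 15, 16 and 17 that is also used below. The groups did not overlap, with 6.06 to 31.1 normalized CPM after caerulein and 0 to 1.80 in PBS (exact permutation test, two-sided, p = 0.00794). Pooled over libraries, the scaled count was 19.4 times that of PBS, with a 95% interval of 6.56 to 94.6 that covers counting error only. Without caerulein library 20, which held 59.6% of the group's Krt19 counts, the pooled ratio was 11.4 (3.81 to 56.3), and the remaining 4 caerulein libraries still lay above all 5 PBS libraries. With the lower filter of 3 counts Krt19 was tested and called (log2 fold change 4.16 ± 0.85 SE, edgeR adjusted p = 0.0165). DESeq2, which applies its own filter on the mean count, called it as well (4.58 ± 1.06 SE, adjusted p = 0.00191).

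Krt7, the type II keratin of duct and other glandular epithelia, gave 5, 29, 5, 7 and 142 counts after caerulein, and 0, 2, 0, 1 and 0 in PBS. The groups touched without overlapping, since caerulein library 19 and PBS library 16 both came to 1.80 normalized CPM after rounding (exact permutation test, two-sided, p = 0.00794). Library 20 held 75.5% of the caerulein counts. The pooled ratio was 13.8 (4.64 to 67.3, counting error only) with it and 4.92 (1.58 to 24.7) without it. Krt7 was called with the filter of 3 counts (log2 fold change 3.61 ± 0.95 SE, edgeR adjusted p = 0.0433) and by DESeq2 (4.03 ± 1.22 SE, adjusted p = 0.0215).

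Krt7 and Krt19 were thus 2 of 9 genes whose caerulein libraries all lay above the PBS libraries on normalized CPM. The same held for 2.54% of the 946 genes tested and for 0.865% of the 38845 genes with at least 1 count in pancreas. Both of these keratins were below the main filter, which asks for 10 counts, scaled to the median library, in at least 5 libraries.

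Krt18, the type I keratin of most simple epithelia, gave 19, 33, 35, 28 and 438 counts after caerulein and 9, 6, 3, 1 and 5 in PBS. On normalized CPM 3 of 5 caerulein libraries exceeded every PBS library, and libraries 10 and 19 (6.55 and 7.21) lay within the PBS range of 1.80 to 13.2. As a share of usable counts, with no composition factor, the groups did not overlap, with 0.594 to 7.40 counts per 10000 after caerulein and 0.129 to 0.555 in PBS. That scale rises for other genes where acinar RNA falls. On it 11.8% of the 934 genes tested outside satellite-like genes, and 2.07% of the 38883 with any count, were also higher without overlap. The log2 fold change of 2.14 ± 0.76 (SE, n = 5 and 5) did not pass (edgeR adjusted p = 0.0694, range 0.0161 to 0.288 over the alternatives). Library 20 held 79.2% of the caerulein counts, and without it the value was 1.18 (edgeR adjusted p = 0.288). Krt18 was called by DESeq2 (2.60 ± 0.80 SE, adjusted p = 0.0235) and with DESeq2's size factors in edgeR, where 24.3% of all genes tested were called in either direction. A processed pseudogene, Gm5200, shares 32.3% of its 15-base words and received 13 counts in all libraries.

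DESeq2 gave 8 of the 9 genes an adjusted p, all but Sox9, and called 3 higher, the keratins Krt7, Krt18 and Krt19. It called 7.44% of 8618 genes higher. The filter of 3 counts gave 2 calls, Krt7 and Krt19, against 1.49% of 7032 genes. With no filter there were 4 calls, these 3 keratins and Epcam, against 3.18% of 38895 genes. With library totals as the scale Krt8, Krt18 and Clu, all 3 that were tested, were called higher, but so were 58.6% of all genes tested.

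Krt8, the type II partner of Krt18, gave 4, 24, 25, 30 and 223 counts after caerulein and 6, 18, 0, 0 and 6 in PBS. The groups overlapped, and the log2 fold change of 1.16 ± 0.79 (SE, edgeR adjusted p = 0.325) came to 0.31 without library 20. Per transcript length, the ratio of Krt8 to Krt18 counts in a library lay between 0.155 and 0.786 after caerulein. In PBS, where both genes had at most 18 counts, it lay between 0 and 2.2, and library 8 was the only 1 of the 10 with more Krt8 than Krt18 by this measure. Krt8 has a pseudogene, Krt8-ps, that shares 82.4% of its 15-base words and received 2 counts in all 20 libraries.

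Clu, which encodes the secreted chaperone clusterin and is known to rise in injured epithelia, had the most counts of the 9 genes in pancreas. It gave 91, 411, 194, 235 and 702 counts after caerulein and 119, 83, 20, 28 and 38 in PBS. On normalized CPM the caerulein range of 60.5 to 151 lay within the PBS range of 39.7 to 174, where library 7 was highest. The log2 fold change was 0.45 ± 0.62 (SE, edgeR adjusted p = 0.638). As a share of usable counts, with no composition factor, every caerulein library exceeded every PBS library (6.24 to 13.9 against 2.87 to 5.90 counts per 10000, exact permutation test, two-sided, p = 0.00794). Krt7, Krt18, Krt19 and Clu were without overlap on that scale, and so were 11.8% of the 934 genes tested outside satellite-like genes and 2.07% of the 38883 with any count, and the scale rises for other genes where acinar RNA falls. The direction of Clu did not change with the scaling, but its size did, from 0.24 with ribosomal protein genes as the scale to 2.23 with library totals.

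Epcam, an epithelial adhesion molecule, gave 0, 9, 10, 11 and 176 counts after caerulein and 0, 1, 2, 1 and 0 in PBS. Sox9, which specifies duct progenitors, gave 0, 3, 2, 1 and 54, against 0, 0, 1, 0 and 1. Cftr, the chloride channel of duct fluid secretion, gave 3, 5, 9, 2 and 37, against 0, 1, 0, 2 and 1. All 3 overlapped between the groups, with two-sided exact permutation p values of 0.222, 0.468 and 0.119. Their caerulein counts sat largely in library 20, which held 85.4% for Epcam, 90.0% for Sox9 and 66.1% for Cftr. Without that library the fitted log2 fold changes were 1.37 for Epcam, 0.01 for Sox9 and 1.15 for Cftr, against 2.99, 2.19 and 1.65 with it.

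Muc1, a membrane mucin of the apical surface of gland cells, was the exception in direction. It gave 8, 4, 9, 7 and 82 counts after caerulein and 46, 29, 6, 4 and 9 in PBS. The fitted log2 fold change was -1.85, and 3 of 5 caerulein libraries lay below all PBS libraries, but the groups overlapped (exact permutation test, two-sided, p = 0.0714). Without library 20 the value was -2.55 (exact permutation test with 4 against 5 libraries, two-sided, p = 0.0317), and with library totals as the scale it was -0.17.

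**Figure D2:**
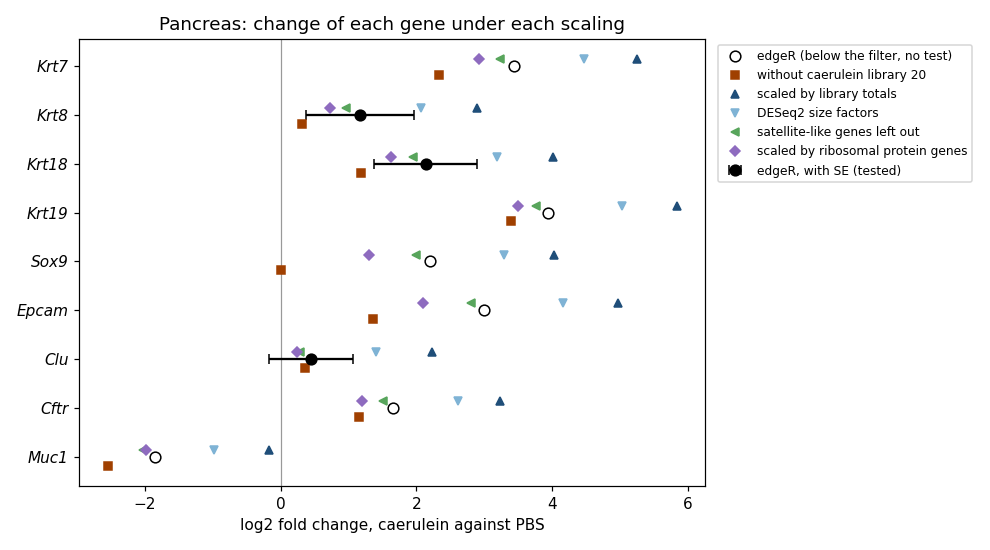
Log2 fold change of each gene in pancreas, caerulein against PBS (x axis), under each scaling and without caerulein library 20. Filled circles with bars are edgeR values with their SE for genes tested, and open circles are genes below the filter. Krt19 stays between 3.39 and 5.84 under all of them, while Sox9 is at 0.01 without library 20.

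The 9 genes were spread unevenly over the caerulein libraries. Library 20 had the highest count of every one of them, with 2012 of the genes' counts in all, or 0.340% of its usable counts. The other 4 caerulein libraries held 0.0948% to 0.218%, and the PBS libraries 0.0460% to 0.0898%. The summed share thus did not overlap between the groups, but this scale rises for other genes where acinar RNA falls. Of the 934 genes tested outside satellite-like genes 11.8% were also higher without overlap, and of the 38883 with any count 2.07%. Clu alone gave 702 of the 2012 counts in library 20. Library 10 was second in Clu, Krt19 and Krt7 and had 3 Sox9 and 4 Muc1 counts. Library 18 had 15 Krt19 but 35 Krt18 counts. Library 9, with 87788 usable counts, had 5 Krt19 counts and no Epcam or Sox9 count.

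Because acinar RNA fell in the same libraries, each gene's counts were also divided by the counts of the 29 acinar genes in the same library. This ratio was added after the data were seen and needs no factor between libraries, but it rises when acinar RNA falls. Acinar genes held 10.4% to 50.5% of usable counts in PBS and 1.38% to 15.7% after caerulein. For Krt7, Krt8, Krt18, Krt19 and Clu all caerulein ratios lay above all PBS ratios (exact permutation tests, two-sided, each p = 0.00794, 9 such tests unadjusted). Krt18 had 0.756 to 2.48 counts per 10000 acinar counts in PBS and 16 to 299 after caerulein, and Clu had 10.5 to 34.9 and 88.6 to 534. Among all genes tested 36.3% also had no overlap in this direction, and among genes with any count 6.7%, so the ratio gives a place of each gene against acinar RNA and not a rise of its own.

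Muc1 stood closest to the acinar genes by this measure. Its ratio lay between 3.66 and 4.99 counts per 10000 acinar counts in the 5 PBS libraries, although its counts there ranged from 4 to 46. After caerulein libraries 18 and 10 (4.11 and 5.20) were near that range, libraries 19 and 9 (8.56 and 10.6) were above it and library 20 (56.0) was far above (exact permutation test, two-sided, p = 0.0556).

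**Figure D3:**
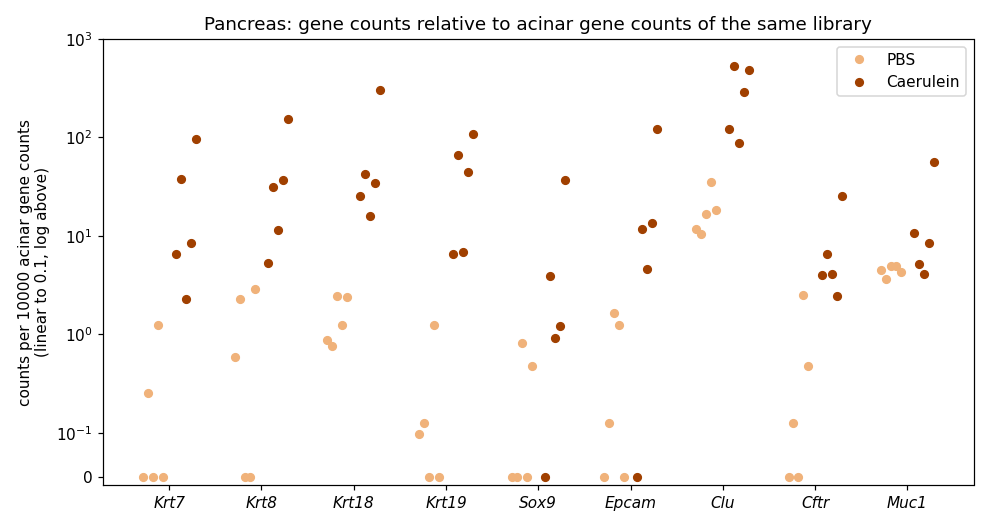
Counts of each gene per 10000 counts of 29 acinar genes in the same pancreas library (y axis linear to 0.1 and logarithmic above; points are libraries in the order of their label numbers). The PBS points of Muc1 lie in a narrow band from 3.66 to 4.99, and Krt18 moves from at most 2.48 in PBS to at least 16 after caerulein.

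Of 35 other duct and metaplasia genes listed beside the 9, only 4 passed the filter in pancreas, where 1 was called higher, 1 lower and 2 not. Anxa2, which encodes the membrane-binding protein annexin A2 and is not specific to ducts, rose with a log2 fold change of 3.01 ± 0.92 (SE, edgeR adjusted p = 0.0384). Tff2, a trefoil peptide of mucus, fell by 4.38 on the log2 scale (SE 0.96, edgeR adjusted p = 0.0121), from 1061 counts over the PBS libraries to 113. The other 2 tested genes were Cd24a (1.40 ± 0.79 SE, adjusted p = 0.239) and Muc4 (-0.20 ± 0.79 SE, adjusted p = 0.889). The median of the 4 was 0.60, beside -0.00 over all 946 genes tested.

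DESeq2 gave 16 of these 35 genes an adjusted p and called 4 higher and 1 lower, where it called 1.09% of all 8618 genes lower. The 4 were Spp1, which encodes osteopontin and is made by duct cells and macrophages, Ambp, Anxa2 and Cd44. Spp1 gave 998 counts after caerulein and 5 in PBS, and Ambp gave 197 and 4, and in both every caerulein library exceeded every PBS library. Onecut1, a transcription factor of duct development, was sparse, with 12 counts after caerulein and 0 in PBS. Of the stomach-type genes other than Tff2, Tff1 had no count in pancreas, and Muc5ac had 10 counts in each group, with a fitted log2 value of -1.95 that was not tested. Muc6 had more counts after caerulein, 93 against 19 in PBS, with 52 of the 93 in the top library. Its fitted log2 value was 0.24, and DESeq2 did not call it (adjusted p = 0.564). In skin 14 of the 35 genes were tested and none was called (median 0.11, beside 0.02 over all genes tested). DESeq2, which called 0.337% of all genes in skin, gave 24 an adjusted p and called 1, Spp1, which gave 849 counts after DNFB and 10 after acetone (5.31 ± 1.31 SE, adjusted p = 0.0222), where edgeR did not call it (5.74 ± 1.38 SE, adjusted p = 0.154). Anxa2, with the most counts of the list in skin, was not called there (-1.26 ± 0.86 SE, edgeR adjusted p = 0.945).

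Markers of several other cells also differed between the pancreas groups. The leukocyte and stromal shares were highest in caerulein library 10, whereas the share of the 9 genes was highest in library 20. Of the 29 acinar genes 23 were tested, 17 fell and 1 rose, with a median of -2.89. Sycn, which encodes a zymogen granule protein, fell by 5.80 on the log2 scale (SE 1.11, edgeR adjusted p = 0.00967). Pancreatic lipase (Pnlip) fell by 4.59, amylase (Amy2a5) by 3.93 and chymotrypsinogen (Ctrb1), with the most counts of the list, by 2.89. The 1 that rose was Prss1, a trypsinogen gene with close relatives among which reads can be split (5.61 ± 1.18 SE, adjusted p = 0.0121). The leukocyte list held 0.114% to 1.48% of usable counts after caerulein and 0.00992% to 0.110% in PBS. Of its 4 tested genes 1 was called, Lyz2, a macrophage and neutrophil lysozyme, which rose (4.60 ± 1.08 SE, edgeR adjusted p = 0.0166). The stromal list held 0.170% to 1.28% after caerulein and 0.0104% to 0.419% in PBS, so that the groups overlapped, with PBS library 8 at 0.419%. Of its 6 tested genes 1 was called, Dcn, a fibroblast proteoglycan, which rose (2.78 ± 0.81 SE, edgeR adjusted p = 0.0361). The Langerhans cell list, without Epcam, held 0.0786% to 0.605% after caerulein and 0.0134% to 0.0440% in PBS. Its 3 tested genes, the MHC class II genes H2-Ab1 (3.69 ± 0.81 SE, edgeR adjusted p = 0.0121) and H2-Aa (2.61) and their chaperone Cd74 (2.66), were all called higher, and other antigen-presenting cells express them too.

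Mesothelial cells, which cover the organ, also express Krt7, Krt8, Krt18 and Krt19. Their 6 other markers held 29 to 640 counts after caerulein and 4 to 72 in PBS, highest in caerulein libraries 10, 19 and 20, with 0.115%, 0.0688% and 0.0678% of usable counts. Upk3b, a mesothelial plaque protein, was the only 1 tested and was not called (0.87 ± 0.65 SE, edgeR adjusted p = 0.377). The 10 islet genes held 0.0301% to 0.231% of usable counts after caerulein, highest in library 18, and 0.0250% to 0.0546% in PBS, so that the groups overlapped, and Ins2, an insulin gene, was not called (0.71 ± 0.73 SE, edgeR adjusted p = 0.522). The genes with the most pancreas counts of the skin lists gave 14 and 75 counts of Itga6, 6 and 35 of Sbsn, 45 and 384 of Cd34, 17 and 222 of Plin2 and 16 and 44 of Piezo2 in PBS and caerulein. The part of mesothelial and islet cells, and of how much of each cell type a piece of tissue held, in the keratin values was not tested.

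**Figure D4:**
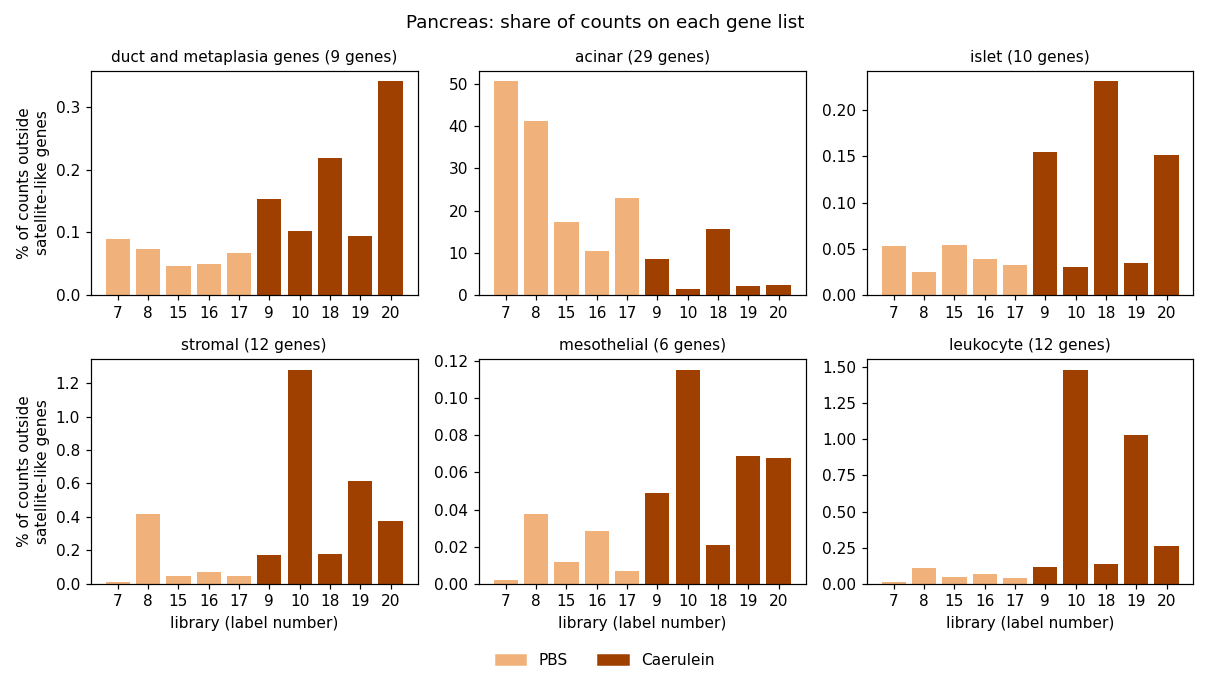
Share of usable counts on the 9 duct and metaplasia genes and on lists of acinar, islet, stromal, mesothelial and leukocyte genes in each pancreas library (bars, % of counts outside satellite-like genes; x axis, label number). The share of the 9 genes is highest in caerulein library 20 (0.340%), while stromal, mesothelial and leukocyte shares are highest in caerulein library 10.

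In skin the question was whether dermatitis moved the same genes. None of the 9 was called between DNFB and acetone, where 0.0275% of 7265 genes tested were called higher and 0.0138% lower. Sox9 and Epcam were the 2 that passed the filter, and both had unadjusted p values above 0.05. DESeq2 called 78 genes (0.337%) and none of the 9.

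Epcam had the most counts of the 9 genes in skin. It gave 39, 6, 72, 110 and 4 counts in DNFB libraries 4, 5, 6, 13 and 14, and 1, 11, 0, 170 and 184 in acetone libraries 1, 2, 3, 11 and 12. The groups overlapped, and the log2 fold change was -0.17 ± 0.74 (SE, edgeR adjusted p = 0.991). Without acetone libraries 11 and 12 it was 1.18 (edgeR adjusted p = 0.754).

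Sox9, a regulator of hair follicle stem cells, also had its highest counts in the libraries with the most usable counts. It gave 15, 2, 35, 36 and 1 counts after DNFB and 0, 7, 1, 66 and 51 after acetone. On normalized CPM Sox9 was highest in acetone library 2 (19.9), above acetone libraries 11 and 12 (12.9 and 13.7). Its log2 fold change was -0.24 ± 0.68 (SE, edgeR adjusted p = 0.987), and 0.48 without acetone libraries 11 and 12. As a share of usable counts, the hair follicle list held 0.344% and 0.350% in those acetone libraries against 0.0477% to 0.0606% in the other 3, and 0.0653% to 0.593% after DNFB, highest in library 13. The Langerhans cell list held 0.202% and 0.385% in acetone 11 and 12, above all other skin libraries (0.0108% to 0.0618%). The sebaceous gland share of acetone 11 and 12 (0.0817% and 0.0879%) lay within the range of the other acetone libraries (0.0248% to 0.0920%). Of the Merkel cell list, which marks another Krt8- and Krt18-bearing cell of skin, each skin library held 5 to 18 counts. The part of these cells in the Epcam and Sox9 counts was not tested. None of the basal keratinocyte, hair follicle, sebaceous gland and Langerhans cell genes tested was called in skin, and of the suprabasal keratinocyte genes 1 of 7, Krt77, fell by 7.34 on the log2 scale (SE 1.11, edgeR adjusted p = 0.0313). The genes with the most counts of the other skin lists had log2 fold changes of 0.40 for Krt14 (basal), 1.15 for Krt17 (hair follicle), -0.42 for Scd1 (sebaceous), -1.16 for H2-Ab1 (Langerhans) and 0.18 for Piezo2 (Merkel, not tested). For the stromal and leukocyte lists they were -0.66 for Dcn and -2.05 for Lyz2, neither called. Those of the acinar, islet and mesothelial lists gave 43 and 7 counts of Rbpjl, 13 and 44 of Pcsk2 and 12 and 10 of Gpm6a after acetone and DNFB.

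Clu had the smallest exact permutation p of the 9 genes in skin. It gave 4, 4, 15, 24 and 6 counts after DNFB and 6, 5, 4, 71 and 41 after acetone. On normalized CPM 4 of 5 DNFB libraries lay below all acetone libraries, with 2.38 to 9.40 after DNFB and 7.12 to 19.3 after acetone (exact permutation test, two-sided, p = 0.0159, unadjusted among 18). The fitted log2 fold change was -1.04, between -1.29 and -0.82 when each library was left out in turn, and DESeq2 did not call it (adjusted p = 0.691). The counts behind the value were few, 53 after DNFB.

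Cftr and Krt7 were low but present, with 46 and 26 Cftr counts and 24 and 16 Krt7 counts after DNFB and acetone. Their pooled ratios were 2.12 (1.29 to 3.58) and 1.80 (0.917 to 3.63), counting error only, with two-sided exact permutation p values of 0.341 and 0.651. Pooling weights deep libraries, and the fitted log2 values were 0.38 for Cftr and 0.01 for Krt7, whose mean normalized CPM was lower after DNFB (2.63) than after acetone (4.25). Acetone library 3 alone held 13 of the 26 Cftr counts of its group. Krt8, Krt18, Krt19 and Muc1 were at or near 0, with 0, 2, 5 and 5 counts after DNFB and 3, 1, 2 and 1 after acetone. A change of these 4 genes was not detectable at this depth.

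The response of the tissues was compared directly as the change in skin minus the change in pancreas, fitted over all 20 libraries. Of the 9 genes 6 were tested and none was called in that interaction (1, Epcam, had an unadjusted p under 0.05), where 22 of 8336 genes tested (0.264%) were, 4 with a higher and 18 with a lower value in skin. Epcam came nearest, with a difference of -2.94 ± 1.40 (SE, edgeR adjusted p = 0.259). The fitted differences were negative for 8 genes, from -3.26 for Krt7 to -1.15 for Cftr, and 3.96 for Muc1. Over all 8336 genes tested the median difference was negative as well, at -0.38. That median was -1.81 with DESeq2's size factors and -2.36 with library totals, so the sign alone does not set the 8 apart. With no filter on counts Epcam (-4.35, edgeR adjusted p = 0.0233) and Krt7 (-4.11, edgeR adjusted p = 0.0494) were called, where 2.07% of 45075 genes were lower.

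The control tissues differed more clearly. Clu was the only 1 of the 9 that passed the filter between acetone skin and PBS pancreas, and it was lower in skin by a log2 value of -3.62 (SE 0.81, edgeR adjusted p = 0.00234), with every acetone library below every PBS library. Of 736 genes tested, 25.1% were called in either direction. With library totals as the scale the Clu value was -0.98 and was no longer called (edgeR adjusted p = 0.402). Tissue, dissection and vehicle cannot be told apart in this comparison.

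Muc1 and Krt18 were also lower in every acetone library than in every PBS library on normalized CPM, with 1 Muc1 count in acetone skin against 94 in PBS pancreas and 1 Krt18 count against 24. The same held, in this direction, for 8.7% of the 736 genes tested and for 0.643% of the 39983 genes with any count. The pooled ratios were 0.00207 (5.19e-05 to 0.0118) and 0.00811 (0.000197 to 0.0497), counting error only. DESeq2 called Clu, Muc1, Krt18 and Krt8 lower in skin and Epcam higher (3.70 ± 1.26 SE, adjusted p = 0.0402), where it called 9.76% of 12862 genes in either direction. The Epcam counts, 366 against 4, came mostly from acetone libraries 11 and 12, and the fitted value of 3.37 was 2.05 without them.

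Levels of the 9 genes can be set beside each other only per length, as normalized CPM per kb of the longest annotated coding transcript. For this the TMM scale was fitted over all 20 libraries. These values are therefore not the normalized CPM of the separate tissue fits, used above, divided by length. In PBS pancreas the order by mean was Clu (73.3 ± 55.4, SD, n = 5), Muc1 (19.3 ± 19.5), Krt18 (7.87 ± 5.16) and Krt8 (6.35 ± 6.82), and the other 5 genes had means under 1. Clu exceeded Muc1 and Muc1 exceeded Krt18 in all 5 libraries, but Krt18 exceeded Krt8 in 4. After caerulein the order was Clu (94.7 ± 38.6), Krt18 (31.1 ± 30.1), Krt19 (13.1 ± 8.02), Krt8 (12.5 ± 11.6), Epcam (6.70 ± 9.41), Muc1 (4.77 ± 3.82), Krt7 (3.22 ± 3.39), Cftr (0.97 ± 0.83) and Sox9 (0.90 ± 1.46). Clu stayed above Krt18 in 5 of 5 libraries and Krt8 above Epcam in 5 of 5, while Krt18 against Krt19 and Krt19 against Krt8 split 3 to 2.

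In skin the order was another. Epcam led with 6.43 ± 5.74 after acetone and 6.52 ± 4.48 after DNFB, followed by Clu (4.19 ± 1.44 and 2.09 ± 0.82) and Sox9 (1.31 ± 1.13 and 1.22 ± 0.87). Epcam was above Clu in 3 of 5 acetone and 4 of 5 DNFB libraries, and Clu above Sox9 in 5 of 5 acetone and 3 of 5 DNFB libraries, so these neighbours were not separated by their spread except Clu and Sox9 after acetone.

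**Figure D5:**
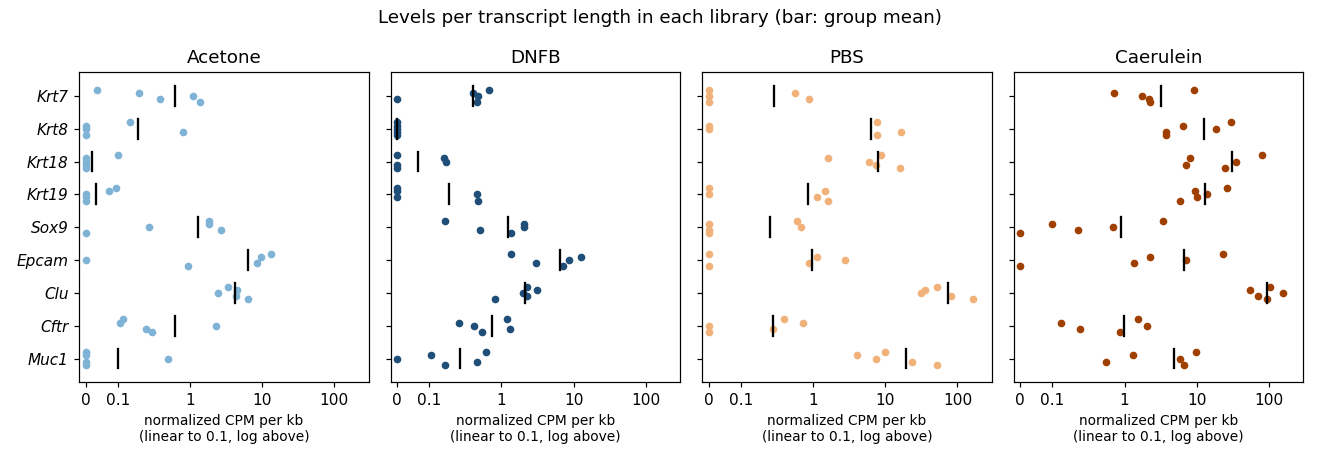
Normalized CPM per kb of transcript, scaled over all 20 libraries together, for the 9 genes in each library of the 4 groups (x axis linear to 0.1 and logarithmic above; bars are group means). Clu is highest in both pancreas groups, with means of 73.3 and 94.7, and Epcam has the highest mean in both skin groups.

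The genes with the pattern most like that of Clu over the 10 pancreas libraries were Tceal9, Prss3 and Fkbp11, with Spearman's rho of 0.915, 0.891 and 0.842 among 945 genes. For Epcam over the 10 skin libraries they were Eif6, Elovl1 and Errfi1, each at 0.976 among 7263 genes, and 4 genes reached that value. These are descriptions of libraries that share depth, since the rank of Clu followed usable depth with a rho of 0.564 and that of Epcam with 0.673.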

How the data were processed

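RNA-seq libraries of 20 mouse samples, 5 in each of 4 groups, were used as labelled. The authors mapped reads to mm10 with STAR 2.5.3 and deposited RSEM 1.3.1 expected counts per gene, not normalized, from modified Smart-Seq2 libraries without molecular identifiers. The gene annotation was not given in the sources used here, and coordinates and lengths are from GENCODE M21 (GRCm38, the assembly of mm10), which named 55230 of the 55471 genes. Of all values 94.7% were whole within 1e-06, and all were rounded. The labels name no separate mice, so p-values measure the spread between these libraries, which may be technical.

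Each tissue was fitted on its own in R 4.3.3 with edgeR 4.0.16 (filterByExpr minimum count 10, TMM, glmQLFit, glmQLFTest, Benjamini-Hochberg threshold 0.05), and an interaction was fitted over 20 libraries. DESeq2 1.42.0 was an alternative. Another added the label-number set as a covariate, libraries with label numbers above 10 against the others. The labels do not say what that split stands for. Fold changes of genes below the filter came from the same library sizes without a test. Exact permutation tests used log2(normalized CPM + 1 count of the median library). Pooled ratios have 95% Clopper-Pearson intervals for counting error only. A gene was called satellite-like where at least 50% of its 15-base words occur in the transcripts of the predicted genes Gm10800, Gm10801 and Gm21738. The scripts were tested on simulated data. The table holds 0 unused columns of per-sample values.

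The 9 genes and all lists were chosen with earlier results of these data known. The named genes were the 9, from each list and tissue up to 4 genes called in order of adjusted p and the gene with the most counts, and for the genes with most counts in pancreas and skin the 3 genes of highest Spearman correlation. Onecut1, Tff1, Muc5ac, Muc6, Cd24a, Muc4, Spp1, Ambp and Cd44 were named after their values were seen. The values of 1 gene of the lists are not reported here.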

Additional observations from a re-analysis of the deposited data

Results flagged for a closer look

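Dixon's test for a single distant value among 5 libraries, at its 95% critical value of 0.71, was applied to log2 values in 35 sets of a gene and a group that were not all equal. It marked 4 sets, where chance marks about 1 in 20. The gap to the nearest library was 0.792 of the range for Krt7 in DNFB library 5, the lowest, with 0 counts against 4 to 8 in the others. It was 0.713 for Cftr in acetone library 3, the highest, with 13 counts against 1 to 6. For Krt18 in acetone library 12 and Muc1 in acetone library 3 it was 1.0, since each held the 1 count of its group. Caerulein library 20, which had the highest count of each of the 9 genes in its group, was not marked for any of them on this scale. No gene of the 9 passed the interaction test of skin against pancreas.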

How the results depend on the processing

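The call of none of the 9 genes in skin held under all 20 alternatives, and in the interaction under all but the absence of a filter, with 2 calls. In pancreas 0 of the 9 were called in the main fit, 0 to 1 when each library was left out (the 1 was Krt19), 1 with DESeq2's size factors in edgeR, 2 with the filter of 3 counts, 3 with DESeq2, 3 with library totals and 4 without a filter. Between control tissues 1 of the 9 was called, Clu, and 0 with library totals, 2 with the filter of 3 counts, 5 without a filter and 5 with DESeq2.

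Over all genes, calls in pancreas went from 115 to 230 with DESeq2's size factors, 572 with library totals, 0 with ribosomal protein scaling, 1297 without a filter, 735 with DESeq2 and 14 to 280 when each library was left out. In skin they went from 3 to 0 with DESeq2's size factors and 0 with library totals, 6 without satellite-like genes, 11 with the filter of 3 counts, 108 without a filter, 12 with the label-number set as covariate, 78 with DESeq2, 25 in the fit of all 20 libraries, 1 without acetone 11 and 12, and 0 to 34 when each library was left out. In the interaction they went from 22 to 0 with DESeq2's size factors and 0 with library totals, 50 without satellite-like genes, 2 with ribosomal protein scaling, 57 with the filter of 3 counts, 1009 without a filter, 4 with the label-number set, 875 with DESeq2, 0 without acetone 11 and 12, and 0 to 615 when each library was left out. Between control tissues they went from 185 to 420 with library totals, 97 with ribosomal protein scaling, 642 with the filter of 3 counts, 1202 without a filter, 1255 with DESeq2, 92 without acetone 11 and 12, and 121 to 459 when each library was left out. In pancreas the count was 14 without PBS 7, 264 without caerulein 9 and 280 without PBS 8, and in the interaction 615 without acetone 3. The cause was not tested.

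Among genes tested in the main fits, signs reversed for Sox9 and Epcam in skin and Cftr in the interaction, all short of the threshold. Sox9 was at 0.48 without acetone 11 and 12. It ran from -0.51 to 0.038 when each library was left out, positive without DNFB 14. Epcam was at 0.13 with the label-number set and 1.18 without acetone 11 and 12. When each library was left out Epcam ran from -0.58 to 0.26, positive without acetone 11, acetone 12 or DNFB 14. Cftr ran from -1.89 to 0.59 when each library was left out, positive without acetone 3. Genes below the main filter, which had no test there, changed sign as well. Krt7 in skin (0.01 in the main fit) was -1.11 without acetone 11 and 12 and -1.57 with ribosomal protein scaling, among other settings. Cftr in skin (0.38) came to -0.60 and -0.55 under those settings. Muc1 in skin (2.01) was -0.13 without acetone 11 and 12, and Krt18 in skin (0.82) was -0.02 with DESeq2. Between control tissues Krt7 (0.89) fell to -0.10 without acetone 1, and Cftr (1.22) to -0.43 without acetone 3. Counts of 0 to 5 per library limit Sox9, Cftr, Epcam, Krt7 and Krt19 in PBS pancreas. No paired analysis was possible because the label numbers run from 1 to 20 and no number occurs in more than 1 group.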
